A study of Arabidopsis thaliana with 9 samples.

Results

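The 9 growth-regulating factor genes of Arabidopsis thaliana, GRF1 to GRF9, were followed through 6 peak lists from chromatin immunoprecipitation sequencing (ChIP-seq), an assay that recovers and sequences the DNA attached to a chosen protein. They are 9 of 27444 protein-coding genes on chromosomes 1 to 5 and were picked by locus, since 14-3-3 genes, an unrelated family, bear the same symbols. In the gene annotation used here, 8 of the 9 symbols were shared with another gene. The libraries came from 35S:GRF1-GFP plants (3 libraries) and 35S:GRF3-GFP plants (3 libraries), in which GRF1 or GRF3 joined to green fluorescent protein (GFP) was driven by 35S, a viral promoter active in most plant tissues, so the level and the tissues of the tagged factor were not set by its own promoter. All plants were of strain Ws, were grown on MS medium and were collected whole at 2 weeks of age, and the antibody was against GFP in every library. Another 3 samples, from plants with 35S:GFP alone, had no peak list and were not analysed here. The labels do not say whether replicates were separate plantings or how many independent lines were used, so p-values measure only the spread between these libraries.

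GRF proteins carry a QLQ domain, through which they bind GIF coactivators, and a WRC domain, a zinc finger that contacts DNA. They are best known for promoting cell proliferation in young leaves. The microRNA miR396 cleaves the transcripts of most members, but not those of GRF5 and GRF6, which lack its target site. Set against each other here are the places in and around the family's own genes where peaks were called in the libraries of tagged GRF1 and of tagged GRF3.

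A peak was counted at a gene when it overlapped the gene span, or the 1 kb on either side, by at least 1 bp. Overlapping peaks from at least 2 of the 3 libraries of a factor were joined into a consensus region. The fold of a peak is the authors' fold enrichment over the background their peak caller used, and −log10 q is the authors' measure of how unlikely the peak was by chance, adjusted over all positions. Both describe peaks inside 1 list only. The 35S:GRF1-GFP lists held 1122 to 1878 peaks with median folds of 2.43 to 4.52, and the 35S:GRF3-GFP lists held 2258 to 5944 peaks with median folds of 2.41 to 2.56. The longest list was 35S:GRF3-GFP replicate 3. No list gives read counts, so sequencing depth is unknown. Positions are in TAIR10, the build of the lists. Gene spans came from a table of assembly TAIR10.1 that gives no strand, so "left" and "right" follow chromosome numbering, and exons, introns and UTRs were not assigned.

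Consensus regions in this family lay at the GRF1 and GRF7 genes in the GRF1-GFP libraries and at the GRF3 gene alone in the GRF3-GFP libraries. Of the 9 members, 2 had a GRF1-GFP region, against 3.3% of all protein-coding genes, and 1 had a GRF3-GFP region, against 5.98% of all. These regions were present in all 3 libraries of the factor, as regions were at 2.42% of all protein-coding genes for GRF1-GFP and at 3.21% for GRF3-GFP. Counting any peak in any library, 5 members had a peak, against 23.3% of all protein-coding genes. With only peaks of a fold of at least 4, GRF1 lost its GRF1-GFP region, which left 1 member (GRF7), and 2 members (GRF3 and GRF7) had any peak. This cutoff was not equally strict in each list. It lay below the median fold of GRF1-GFP replicate 2 (4.52) and above those of replicates 1 and 3 (2.43 and 2.60). In all there were 23 peaks at members, 15 in GRF1-GFP libraries and 8 in GRF3-GFP libraries. Of these 23, 16 lay at the gene of the tagged factor in that factor's own libraries. Plants of each line also carry a transgene copy of that factor's sequence, whose part in these 16 peaks was not tested. All 23 overlapped the gene span itself, and 22 had their summit, the point of highest enrichment, inside it. The share of all genes with a peak was 3.31%, 4.84% and 4.26% in GRF1-GFP replicates 1, 2 and 3, where 2, 3 and 3 members had a peak. It was 7.82%, 6.02% and 15.5% in GRF3-GFP replicates 1, 2 and 3, where 1, 1 and 2 members had a peak.

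**Figure D1:**
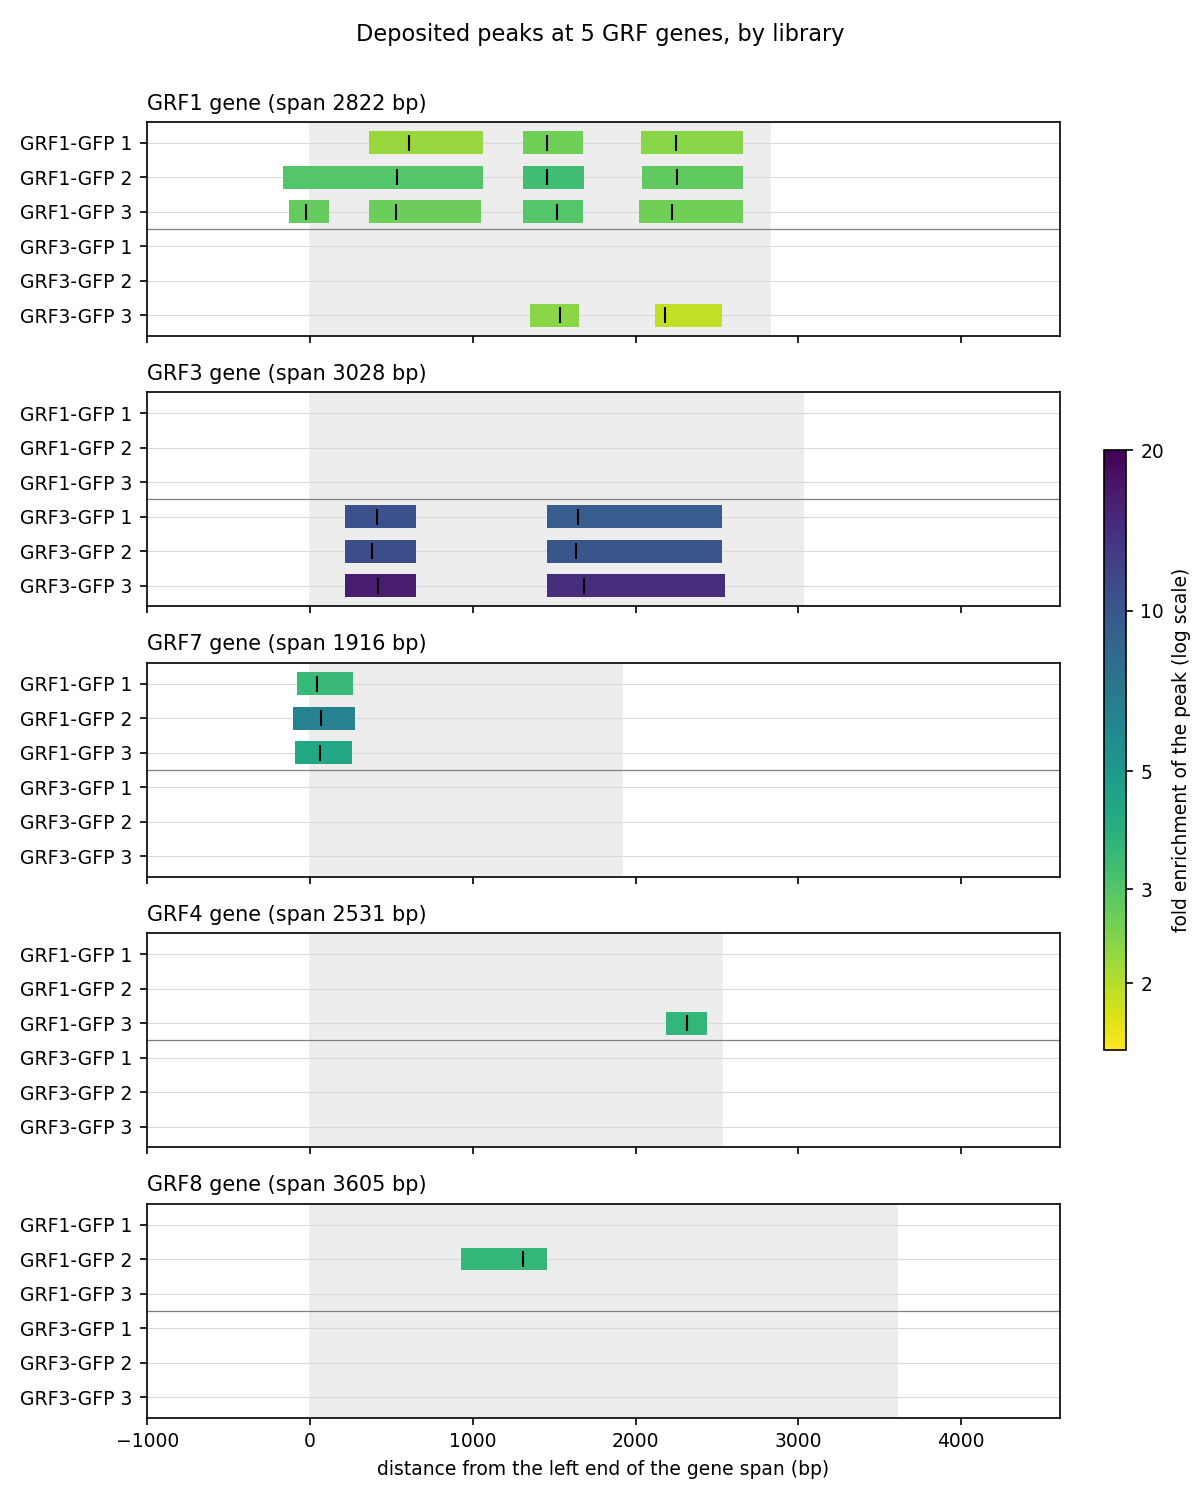
Deposited peaks at the GRF1, GRF3, GRF7, GRF4 and GRF8 genes, 1 row per library, with GRF1-GFP libraries above GRF3-GFP libraries in each panel. The x axis is the distance in bp from the left end of the gene span (grey), bars are peaks coloured by fold on a log scale, and black ticks are summits. GRF1-GFP libraries had peaks in the same 3 stretches of the GRF1 gene and at the left end of GRF7, and GRF3-GFP libraries had peaks in the same 2 stretches of the GRF3 gene.

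At GRF1 (AT2G22840, chromosome 2, span of 2822 bp), a gene that acts with GRF2 and GRF3 in setting leaf and cotyledon size, the GRF1-GFP libraries covered most of the gene body in 3 separate regions. The region at the left, 9728316 to 9729544, reached 164 bp beyond the left end of the span. Its highest folds were 2.23, 3.00 and 2.78 in GRF1-GFP replicates 1, 2 and 3 (2.67 ± 0.40, SD, n = 3). Replicate 1 had a single peak of 704 bp there, replicate 2 a single peak of 1229 bp, and replicate 3 a peak of 244 bp at the end of the span followed by one of 688 bp. The middle region, 9729790 to 9730162, had folds of 2.64, 3.32 and 3.01 in the same order (2.99 ± 0.34, SD, n = 3). Its summits lay 51.7% to 53.8% of the way along the span. The region at the right, 9730502 to 9731138, had folds of 2.38, 2.83 and 2.63 (2.61 ± 0.23, SD, n = 3), with summits 78.8% to 79.8% of the way along. Gaps of 245 bp and 339 bp without a peak in any GRF1-GFP library separated the 3 regions. All 3 libraries were thus alike in number and place of the stretches, apart from the left end of the first.

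Peaks covered 1696, 2223 and 1933 bp of the GRF1 span and its 1 kb flanks in GRF1-GFP replicates 1, 2 and 3, against 0, 0 and 720 bp in GRF3-GFP replicates 1, 2 and 3. The groups did not overlap, and the mean difference, GRF1-GFP minus GRF3-GFP, was 1711 bp. With only peaks of a fold of at least 4 it was 0 bp. By their labels only the GRF1-GFP plants carry a GRF1 transgene, so tagged factor and transgene copy cannot be told apart in this contrast. The exact permutation test over the 6 libraries gave a two-sided p = 0.1, the smallest that 3 against 3 allows. Every GRF1-GFP library lay above every GRF3-GFP library in covered bases at 1.83% of all protein-coding genes. Adjusted over the 6393 genes with a peak in any library (Benjamini-Hochberg), the permutation p at GRF1 was 0.516, which does not pass 0.05. No gene passed (0 of 6393, 0%), and none had an unadjusted permutation p under 0.05 (0 genes), since the design cannot give one.

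The coverage in GRF3-GFP libraries came from replicate 3 alone, the longest list. Its peaks at 9729828 to 9730133 (fold 2.34) and 9730598 to 9731011 (fold 1.93) lay wholly inside the middle and the right GRF1-GFP regions, of which they covered 82.0% and 65.0%. Within that list these folds were low: 66.5% and 93.3% of its peaks had a fold at least as high. The nearest peaks of GRF3-GFP replicates 1 and 2 were 3.57 and 3.63 kb to the left and overlapped SQE2, a squalene epoxidase gene. The right region also lay 141 bp from bZIP6, the neighbouring gene, in all 3 GRF1-GFP libraries, although the region itself lay within the GRF1 span.

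At GRF3 (AT2G36400, chromosome 2, span of 3028 bp), the other tagged factor, no GRF1-GFP library had a peak, while each GRF3-GFP library had 2. The left region, 15270300 to 15270737, had folds of 10.6, 10.9 and 16.2 in GRF3-GFP replicates 1, 2 and 3 (12.6 ± 3.1, SD, n = 3). The right region, 15271545 to 15272636, had folds of 9.44, 10.2 and 14.2 (11.3 ± 2.5, SD, n = 3). Replicate 3 was the highest in both regions. Summits lay 12.5% to 13.8% and 54.0% to 55.6% of the way along the span, with 807 bp between the regions. The left region lay 208 bp from SBE2.1, a starch-branching enzyme gene, and the right region contained the whole 227 bp span of AT2G08795, a long noncoding RNA gene.

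Peaks covered 0 bp of the GRF3 span and its 1 kb flanks in every GRF1-GFP library, against 1511, 1511 and 1530 bp in GRF3-GFP replicates 1, 2 and 3. The groups did not overlap, and the difference of means was -1517 bp, with p = 0.1 in the two-sided exact permutation test, again the smallest it can give. Here only the GRF3-GFP plants carry a GRF3 transgene, so tagged factor and transgene copy again cannot be told apart. Every GRF1-GFP library lay below every GRF3-GFP library at 2.69% of all protein-coding genes, and the adjusted p at GRF3 was 0.516 in the same permutation tests. The nearest GRF1-GFP peaks were 118, 76.8 and 118 kb away in replicates 1, 2 and 3. At those distances, 74.5% to 86.2% of all genes were nearer to a peak of the same list.

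The tagged factors' genes differed in how their peaks ranked inside their own lists. At the GRF1 gene in GRF1-GFP libraries, 44.8% to 58.6% of all peaks in the list had a fold at least as high, so these peaks sat near the middle of their lists. At the GRF3 gene in GRF3-GFP libraries, only 0.74% to 5.31% of all peaks had a fold at least as high. Among consensus regions ranked by mean fold, the GRF1 gene's regions were 688th, 718th and 723rd of 1147, and the GRF3 gene's regions 48th and 62nd of 2203. By −log10 q, the GRF1 gene's peaks ranked higher than by fold: leaving aside the 244 bp peak of replicate 3, 25.4% to 43.0% of the list was at or above them. Those values were 28.7 to 46.5, against list medians of 14.7, 28.7 and 15.5 in replicates 1, 2 and 3. The 244 bp peak went the other way, with a −log10 q of 10.4. By −log10 q 59.7% of its list was at or above it, against 47.3% by fold. At the GRF3 gene −log10 q was 108 to 228, and 0.976% to 4.61% of the list was at or above. Ranks from lists of different lengths are not comparable as amounts, and the difference in rank was not tested.

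**Figure D2:**
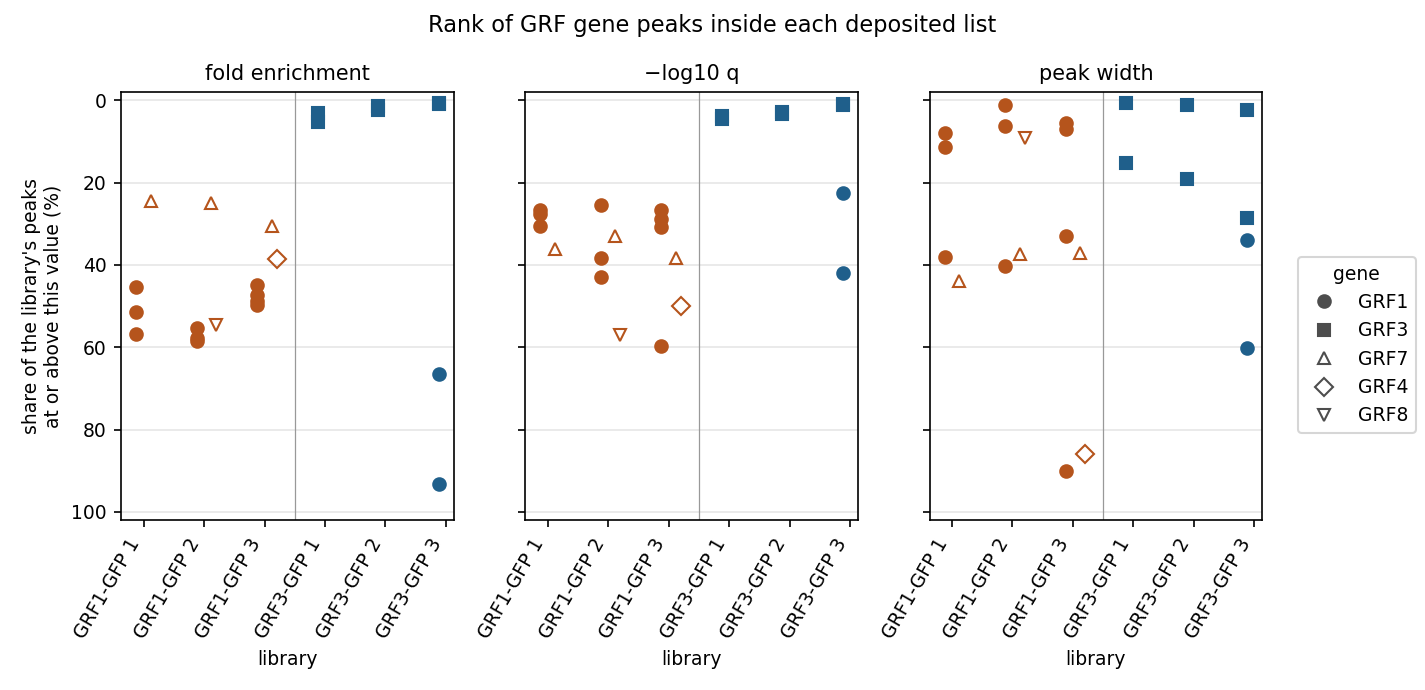
Rank of every peak at a GRF gene inside its own list, for fold, −log10 q and peak width. The y axis is the share of that library's peaks at or above the value in %, with the top of the list at the top. Points are peaks, shapes are genes, and columns are libraries, GRF1-GFP in brown and GRF3-GFP in blue. The GRF3 gene's peaks in GRF3-GFP libraries were within the top 5.31% by fold, and the GRF1 gene's peaks in GRF1-GFP libraries lay between 44.8% and 58.6%.

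Some of the peaks at the tagged genes were wide for their lists. Leaving aside the 244 bp peak of replicate 3, the peaks of the GRF1 gene's left and right regions were among the widest 1.07% to 11.4% of their lists, where the median width was 312 to 337 bp. The 244 bp peak was narrow, with 90.0% of its list at least as wide. The GRF3 gene's right region was 1073, 1073 and 1092 bp wide in GRF3-GFP replicates 1, 2 and 3, among the widest 0.709% to 2.27%, where the median was 306 to 342 bp. The other regions ranked lower by width: the GRF1 gene's middle region (364 to 373 bp) was among the widest 32.9% to 40.3%, and the GRF3 gene's left region (438 bp) among the widest 15.3% to 28.6%. Wide peaks were not limited to the tagged genes. A GRF8 peak of 529 bp in GRF1-GFP replicate 2 was among the widest 9.27% of its list. Few genes held so many separate regions. Regions found in all 3 GRF1-GFP libraries overlapped the spans of 341 protein-coding genes. Only 2 of these genes held 3 or more such regions, GRF1 and AT2G08986, a gene of 8403 bp that was chosen for mention after its values were seen and that also held 4 GRF3-GFP regions. For GRF3-GFP, 17 of 491 such genes held at least 2, GRF3 among them.

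Some edges of the tagged genes' peaks fell on the same base in all 3 libraries. The middle region at GRF1 started at 9729790 in every GRF1-GFP library, and its right edges spread over 9 bp. The right region at GRF1 ended at 9731138 in every GRF1-GFP library, with left edges spread over 16 bp. In the left region at GRF1, replicates 1 and 3 shared the start at 9728841, and replicates 1 and 2 the end at 9729544. The left region at GRF3 had both edges on the same base in all GRF3-GFP libraries. The right region at GRF3 started at 15271545 in every GRF3-GFP library, and its right edges spread over 19 bp.

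The same edges were compared over all regions with 1 peak in each of the 3 libraries. Among 569 such GRF1-GFP regions the left edge was on the same base in 59 (10.4%) and the right edge in 2 (0.351%), and the GRF1 gene's right region was 1 of these 2. Among 895 such GRF3-GFP regions the left edge was shared in 41 (4.58%), the right edge in 5 (0.559%) and both edges in 2 (0.223%), and the GRF3 gene's left region was 1 of those with both. The median spread was 28 bp for the left and 35 bp for the right edge in GRF1-GFP, and 31 and 36 bp in GRF3-GFP. The share with at least 1 shared edge depended on the tolerance: it was 10.7% on the same base and 28.8% within 2 bp in GRF1-GFP, and 4.92% and 8.72% in GRF3-GFP. These shares describe the lists, and no test was made on them. Plants of each line carry another copy of the tagged factor's sequence in the transgene, and its part in the peaks at that factor's gene was not tested.

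**Figure D3:**
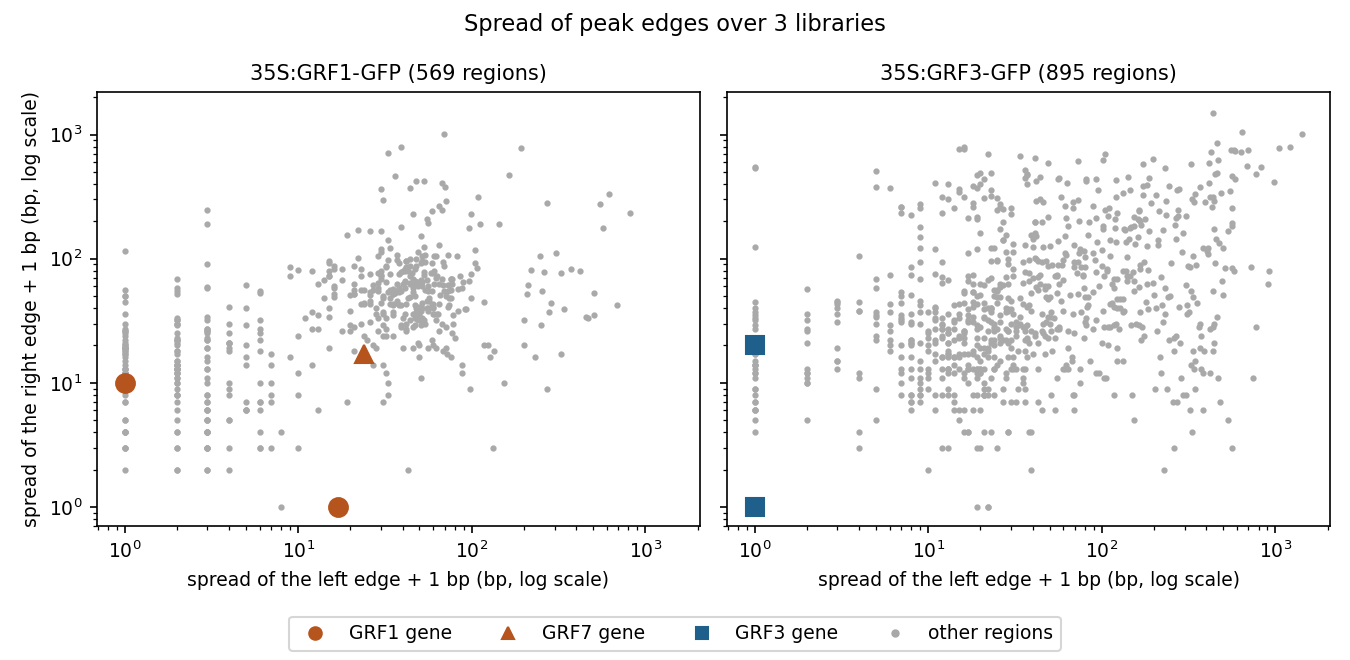
Spread of peak edges over the 3 libraries of each factor, in regions with 1 peak per library (569 for 35S:GRF1-GFP, 895 for 35S:GRF3-GFP). The axes give the highest minus the lowest position of the left and of the right edge, plus 1 bp, on log scales, so that a point at 1 marks an edge on the same base in all libraries. Coloured points are regions at GRF genes and grey points all others. The GRF1 gene's 2 regions and the GRF3 gene's 2 regions each lie on an axis minimum, and the GRF7 region does not.

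GRF7 (AT5G53660, chromosome 5, span of 1916 bp), known for repressing osmotic stress genes such as DREB2A, was the only member other than the tagged ones with a consensus region. It had 1 peak in each GRF1-GFP library and none in GRF3-GFP libraries. The folds were 3.50, 6.31 and 4.27 in GRF1-GFP replicates 1, 2 and 3 (4.70 ± 1.45, SD, n = 3), highest in replicate 2. The region, 21794074 to 21794452, crossed the left end of the span, beginning 80 to 103 bp outside it, with summits 41, 68 and 58 bp inside. Nearly the whole of it lay in AT5G08015, a long noncoding RNA gene of 373 bp that shares 324, 347 and 335 bp with the peaks of replicates 1, 2 and 3. The peaks therefore cannot be assigned to GRF7 rather than to AT5G08015.

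Covered bases at GRF7 and its 1 kb flanks were 343, 379 and 351 bp in the GRF1-GFP libraries, against 0 bp in every GRF3-GFP library. The groups did not overlap, and the difference of means was 358 bp. The two-sided exact permutation test gave p = 0.1, the smallest it can give (adjusted p = 0.516). Every GRF1-GFP library lay above every GRF3-GFP library at 1.83% of all protein-coding genes. GRF7 was tested because it had a region in earlier results of these data, so this separation was known before the test. Inside their lists the GRF7 peaks ranked above those of the GRF1 gene by fold, with 24.4%, 25.0% and 30.6% of the list at or above them in replicates 1, 2 and 3. By −log10 q, 36.2%, 33.1% and 38.4% of the list was at or above them in replicates 1, 2 and 3. In replicate 1 they ranked below the GRF1 gene's peaks (26.6% to 30.6%), and in replicate 2 between them (25.4% to 43.0%). In replicate 3 they ranked above the GRF1 gene's 244 bp peak (59.7%) and below its other peaks (26.7% to 30.8%). They were not wide (343 to 379 bp), and their edges spread over 23 bp on the left and 16 bp on the right. The nearest GRF3-GFP peaks were 39.3, 39.5 and 39.4 kb to the right in replicates 1, 2 and 3.

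GRF4 and GRF8 each had a peak in 1 GRF1-GFP library and in no GRF3-GFP library. GRF4 (AT3G52910, chromosome 3), another promoter of leaf growth, had a peak at 19618163 to 19618412 in GRF1-GFP replicate 3 (fold 3.64), with its summit 91.5% of the way along a span of 2531 bp. It covered 250 bp in replicate 3 and 0 bp in GRF1-GFP replicates 1 and 2, against 0 bp in every GRF3-GFP library. GRF8 (AT4G24150, chromosome 4) had a peak at 12536896 to 12537424 in GRF1-GFP replicate 2 (fold 3.55), with its summit 36.2% of the way along a span of 3605 bp. It covered 529 bp in replicate 2 and 0 bp in GRF1-GFP replicates 1 and 3, against 0 bp in every GRF3-GFP library. At both genes the groups overlapped at 0 bp (two-sided exact permutation test, p = 1). By fold, neither peak was near the top of its list, with 38.6% of the replicate 3 list and 54.6% of the replicate 2 list at or above them. By width, the GRF4 peak was among the widest 86.0% of its list and the GRF8 peak among the widest 9.27%.

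GRF4 was the member closest to passing the 1 kb limit in GRF3-GFP libraries. Its nearest peaks in GRF1-GFP replicates 1 and 2 were 76.7 and 13.7 kb away. All 3 GRF3-GFP libraries had a peak 2.92 to 2.93 kb to its left, with folds of 8.32, 7.64 and 8.60 in replicates 1, 2 and 3. These peaks, at 19612642 to 19613045 in replicate 1, ended 18 to 33 bp before the span of another gene, AT3G52900.

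No list of the 6 held a peak at GRF2, GRF5, GRF6 or GRF9. GRF2 (AT4G37740), which acts with GRF1 and GRF3 in leaf size, had its nearest GRF1-GFP peaks 38.7 kb to the left in all 3 libraries, overlapping ACA2, a calcium pump gene. Its nearest GRF3-GFP peaks were 17.5, 64.4 and 16.1 kb away in replicates 1, 2 and 3. GRF5 (AT3G13960), whose overexpression enlarges leaves, had its nearest GRF1-GFP peaks 31.4, 31.3 and 31.4 kb to the right, overlapping NF-YA6, and its nearest GRF3-GFP peaks 131, 39.3 and 8.13 kb away. For both genes the GRF1-GFP libraries pointed to the same place, with distances that spread over 5 and 98 bp, while their GRF3-GFP peaks did not overlap one another.

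GRF6 (AT2G06200) had the lowest median distance of these 4 genes over the 6 lists, at 9.44 kb. Its GRF1-GFP distances were 9.44, 9.38 and 9.44 kb, to peaks with folds of 3.08, 5.27 and 3.82 that lay 52 to 111 bp from ELF8. Its GRF3-GFP distances were 22.3, 13.7 and 4.12 kb, in different places. GRF9 (AT2G45480), reported to restrain leaf growth, had its nearest GRF1-GFP peaks 68.0, 44.4 and 34.9 kb away and its nearest GRF3-GFP peaks 30.9, 15.8 and 12.9 kb away in replicates 1, 2 and 3. The gene closest to that peak was a different one in every library.

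Distances also differed between lists over all genes. The median distance over all protein-coding genes was 56.2, 37.6 and 38.4 kb in GRF1-GFP replicates 1, 2 and 3, and 21.9, 30.9 and 9.34 kb in GRF3-GFP replicates 1, 2 and 3. Across the 6 lists, 38.8% to 74.6% of all genes were nearer to a peak than GRF2 was, 33.3% to 97.7% than GRF5, 12.9% to 50.5% than GRF6 and 31.8% to 61.4% than GRF9. A gene without a peak in these lists may still be bound below what the caller reported, and with depth unknown no limit can be set on it.

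**Figure D4:**
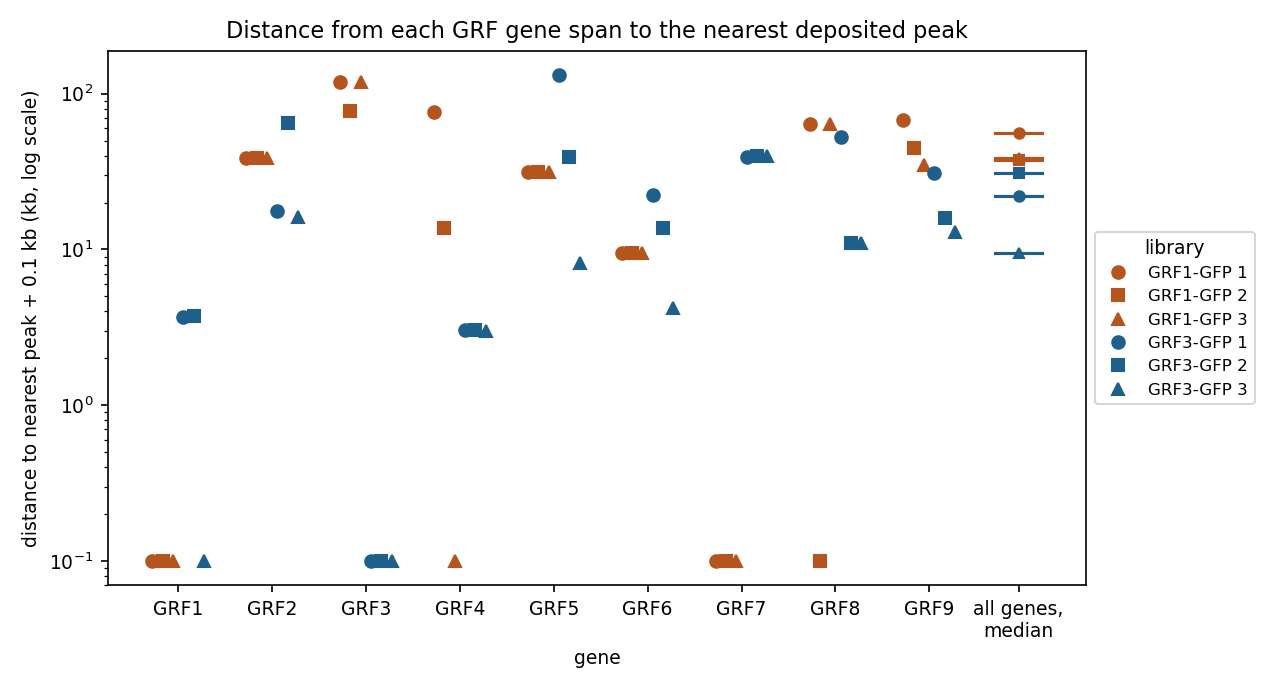
Distance from each GRF gene span to the nearest peak of each library, plus 0.1 kb, on a log scale in kb. Points are libraries, GRF1-GFP in brown before GRF3-GFP in blue, the shape gives the replicate, and the bars at the right give the median over all protein-coding genes for each library. Points at 0.1 kb are peaks that overlap the gene. GRF2, GRF5, GRF6 and GRF9 have no such point, and GRF4 has all 3 GRF3-GFP points at 2.92 to 2.93 kb.

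Around the family, 17 partner, regulator and reported target genes were followed in the same way. Of these 17, 2 had a GRF1-GFP consensus region (3.3% of all protein-coding genes did) and 2 had a GRF3-GFP one (5.98%). The 17 were 15 protein-coding genes and 2 microRNA genes, so the shares are not for quite the same kind of gene. SYD (17067 bp) and BRM (9523 bp) had the longest spans of the 17, and the shares were not corrected for span. BRM and SYD encode ATPases of SWI/SNF chromatin remodelling complexes, with which the GIF coactivator AN3 associates. SYD had a GRF1-GFP region in all 3 libraries, 69 to 133 bp outside the left end of its span, with folds of 2.46, 6.05 and 4.21 in replicates 1, 2 and 3. GRF3-GFP replicates 1 and 3 had 1 and 3 peaks inside the SYD span, at folds of 2.58 to 3.06, none of which overlapped between these libraries. BRM had a GRF1-GFP region in replicates 2 and 3 (folds of 2.64 and 3.32) with summits 6.64% and 7.03% of the way along its span. Its GRF3-GFP region, in replicates 2 and 3 (folds of 2.64 and 2.29), had summits 95.6% and 95.7% of the way along, so the regions of the 2 factors did not meet. GRF3-GFP replicate 3 had another peak in BRM at 18923999 to 18924732 (fold 1.93), with its summit 18.6% of the way along. It lay near the GRF1-GFP region, which ended at 18923531, without overlapping it. TCP4, an activator of miR396 genes, had a GRF3-GFP region in replicates 1 and 3 (folds of 1.97 and 1.98) and no GRF1-GFP peak. Both GRF3-GFP calls, at BRM and TCP4, were lost (0 genes) with a −log10 q of at least 5, with a fold of at least 4, with equal list lengths, with all 3 libraries required and without GRF3-GFP replicate 3. The GRF1-GFP call at BRM was lost, leaving SYD alone, with a fold of at least 4, with all 3 libraries required and without GRF1-GFP replicate 2 or 3, and the call at SYD was lost when only the span was counted.

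Another 4 of the 17 had peaks that did not make a consensus region, so that 7 of 17 had any peak, against 23.3% of all protein-coding genes. This share too was not corrected for span or kind of gene. The SWI/SNF subunit genes SWP73A and SWP73B had a peak each in GRF3-GFP replicate 3 (folds of 2.42 and 2.22), 609 bp outside the span at SWP73A; that library had a peak at 15.5% of all protein-coding genes. The homeobox gene BP had 2 peaks in GRF1-GFP replicate 3, 150 and 698 bp outside its span (folds of 2.20 and 1.82). The root stem cell gene PLT1 had peaks in GRF3-GFP replicates 2 and 3, in different places. The remaining 10 had no peak in any list: the coactivator genes AN3, GIF2 and GIF3, the microRNA genes MIR396a and MIR396b, DREB2A, the homeobox genes KNAT2 and STM, PLT2 and the cyclin gene CYCB1;1.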

How the data were processed

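The deposited files were 6 peak lists, 1 per library, not pooled. Per the submitters' processing notes, FastQC, Trimmomatic, Bowtie2, MACS2 and the build TAIR10 were used; settings and the control of the peak calling are not given in the sources used here. Columns that the authors deposited hold a score, a fold enrichment (a ratio), and p-values and q-values, each as its −log10. No list held a −log10 q under 1.3. Genes were matched by locus in a RefSeq table of assembly TAIR10.1 (9 of 9 members, 17 of 17 others), used for names and distances only, on the assumption that chromosomes 1 to 5 are numbered alike in both assemblies.

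Values were computed in Python 3.11.15 (numpy 2.4.6, pandas 2.3.3), with steps checked on simulated lists. Covered bases were compared between the lines (3 libraries of 35S:GRF1-GFP against 3 of 35S:GRF3-GFP) by exact two-sided permutation of the difference of means, on every gene with a peak, with Benjamini-Hochberg adjustment. A library's highest fold stood for a region with several peaks. Named genes were the 9 members, the 17 others and genes beside the members' peaks. Members, lists and tests were chosen with earlier results of these data known. Alternatives were stricter −log10 q (5) or fold (4), other windows, summits in place of whole peaks, equal list lengths, all 3 libraries, a reciprocal overlap of 50%, the replicate block and leaving out each library. No sequence table was used here, so none is shown.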

Additional observations from a re-analysis of the deposited data

How the results depend on the processing

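With a fold of at least 4, 1 member kept a GRF1-GFP consensus region (GRF7), and 2 members had a peak in any library (GRF3 and GRF7). The difference in covered bases at GRF1 was 0 bp, because every peak at the GRF1 gene had a fold under 4. At GRF7 the difference was 243 bp, with p = 0.4 in the exact permutation test. The GRF7 peak of GRF1-GFP replicate 1 (fold 3.50) was lost, so the groups overlapped at 0 bp. By fold, 24.4% of its list was at or above that peak, against 30.6% for the GRF7 peak kept in replicate 3. With 3 kb outside the span, 2 members had a GRF3-GFP region, GRF4 being added. The other planned settings kept the direction of the covered-base differences and the counts within 1.5 times. Leaving out 1 library at a time, the difference ran from 1575 to 1951 bp at GRF1, from -1521 to -1511 bp at GRF3 and from 347 to 365 bp at GRF7; 2 members had a GRF1-GFP region and 1 a GRF3-GFP region each time, and 4 or 5 members had a peak. No setting could pass 0.05: the smallest permutation p was 0.1. With the replicate block, the differences were 1711, -1517 and 358 bp at GRF1, GRF3 and GRF7, each at an exact sign-flip permutation p = 0.25, the smallest for 3 pairs. Over genes, the deviations of same-numbered libraries had correlations of -0.0546, -0.0284 and -0.0164. Those of differently numbered libraries ran from -0.0250 to 0.0560. These values cannot tell whether same-numbered libraries shared a planting or a day, which the labels do not give. Among the other 17 genes, 1 GRF3-GFP region was left without GRF3-GFP replicate 1 or 2 or with a reciprocal overlap of 50%. With 3 kb outside the span, 3 of these genes had a GRF3-GFP region, STM being added. All settings for these 17 genes, and the tolerance of 2 bp for shared edges, were chosen after seeing the data. Depth is unknown, so a missing peak sets no limit on binding.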
